A study of Mus musculus with 6 samples.

Results

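The insulin-like growth factor (IGF) family was followed in the ventral midbrain of the mouse embryo. The genes were the ligands Igf1 and Igf2, the receptor gene Igf1r and the binding protein genes Igfbp1 to Igfbp7. Every probe set annotated to exactly 1 of these 10 symbols was taken, which gave 27 of the 45037 probe sets tested, and each of the 10 genes had at least 1. The tissue came from C57BL/6 embryos of mixed sex at embryonic day 10.5. Floor plate, which lines the ventral midline of the neural tube, was compared with the neighbouring ventral lateral piece of the same midbrain. There were 3 samples per region, each a pool of tissue from 6 embryos, and 5 ng of RNA per sample was amplified for an Affymetrix array. The embryos carried no transgene, deletion or treatment that the labels name.

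IGF1 and IGF2 are secreted growth factors that act through the tyrosine kinase receptor encoded by Igf1r and promote growth, survival and proliferation of embryonic cells, neural progenitors included. In extracellular fluid they are held by a family of secreted binding proteins, which can keep the ligands from the receptor or carry them to it. Proteases of the pappalysin family, encoded by Pappa and Pappa2, cleave some of these binding proteins and so free the ligand. Inside the cell the receptor signals through insulin receptor substrates to PI3 kinase and Akt.

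The deposited values are on a log scale, taken here as log2 and as rising with RNA, and each probe set is expressed relative to its median across the 6 arrays. A value of 1 therefore stands for 2-fold more signal than that median, and no value says how strongly a gene is expressed or whether it is above background. Since the median of 6 values lies midway between the middle pair, the middle values mirror each other around 0 by construction, and differences between the regions are not affected. In bulk tissue, fewer cells of a type and less RNA per cell cannot be told apart. Whether the same embryos gave tissue to pools of both regions is not stated in the labels, and the p-values rest on the spread among these 6 samples alone. The dissection was checked against marker lists, which were chosen with earlier results of these data known, so the check is not independent of them. Of 15 floor plate probe sets 12 were higher and none lower in floor plate, and of 14 ventral lateral probe sets 12 were lower and none higher. Neither probe set of the floor plate gene Shh was called (adjusted p of 0.0734 and 0.56 in limma). The mean of the floor plate list was 0.88 to 0.96 in floor plate samples, and -1.38, -0.79 and -1.88 in ventral lateral samples 1, 2 and 3. Of 20 probe sets of neuron genes 1, on the neuronal tubulin-binding protein gene Stmn2, was lower and none higher in floor plate. For 8 of the 20 the floor plate samples lay entirely below the ventral lateral ones and for 1 entirely above, where 11.0% and 11.5% of all probe sets did. The median log2 difference of that list was -0.37, and its mean was -0.31, -0.01 and -0.19 in floor plate samples 1, 2 and 3 and 0.32, 0.17 and -0.10 in ventral lateral samples. The neural progenitor list had a median of 0.09 and no call among 17 probe sets. The part of neuron content in the differences of the IGF family was not tested.

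The binding protein genes Igfbp2, Igfbp3 and Igfbp5 were higher in floor plate than in the ventral lateral piece. The difference was 3.16-fold for Igfbp2 and 1.74 to 2.57-fold for the probe sets of Igfbp3 and Igfbp5 that passed the test. Of the 2 probe sets of Igfbp5 1 passed, and its call was lost when some single samples were left out. The ligand and receptor genes had no probe set past the threshold among 11, and all 6 probe sets of Igfbp4 had values below 0 for floor plate minus ventral lateral without any passing. In numbers, 4 of 27 probe sets, or 14.8%, passed as higher in floor plate (adjusted p under 0.05 in limma, by Benjamini and Hochberg over all 45037 probe sets), while 2.70% of all probe sets were called in that direction and 4.71% in either. None of the 27 was lower, where 2.01% of all probe sets were. At an unadjusted p under 0.05 in limma, 8 of the 27 were higher and 6 lower, or 29.6% and 22.2%, against 8.37% and 8.12% of all probe sets. The 6 lower were the probe set of Igfbp1 and, otherwise, probe sets of Igfbp4. Robust eBayes and array weights also left 0 lower at the adjusted threshold. The groups did not overlap for 13 of the 27, or 48.1%, against 22.4% of all probe sets. Of these 13, 5 were of Igfbp4. Probe sets of 1 gene are repeated measures of it in the same samples, so these shares do not count independent genes. Among the 34945 probe sets with 1 symbol, as the 27 are, 1123 were called higher. With 1 value per gene, Igfbp2 and Igfbp3 passed by the probe set of largest variance and by the mean, and Igfbp5 by the mean alone. Of 18193 genes, 7.80% and 8.13% were called in these ways, in either direction. The median log2 difference was 0.14 over the 27 and -0.0040 over all probe sets, and 3 of the 27 differed by a log2 of at least 1, or 11.1% against 2.59%. Without floor plate sample 1, floor plate sample 3 or ventral lateral sample 3 the count of higher probe sets was 2.

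**Figure D1:**
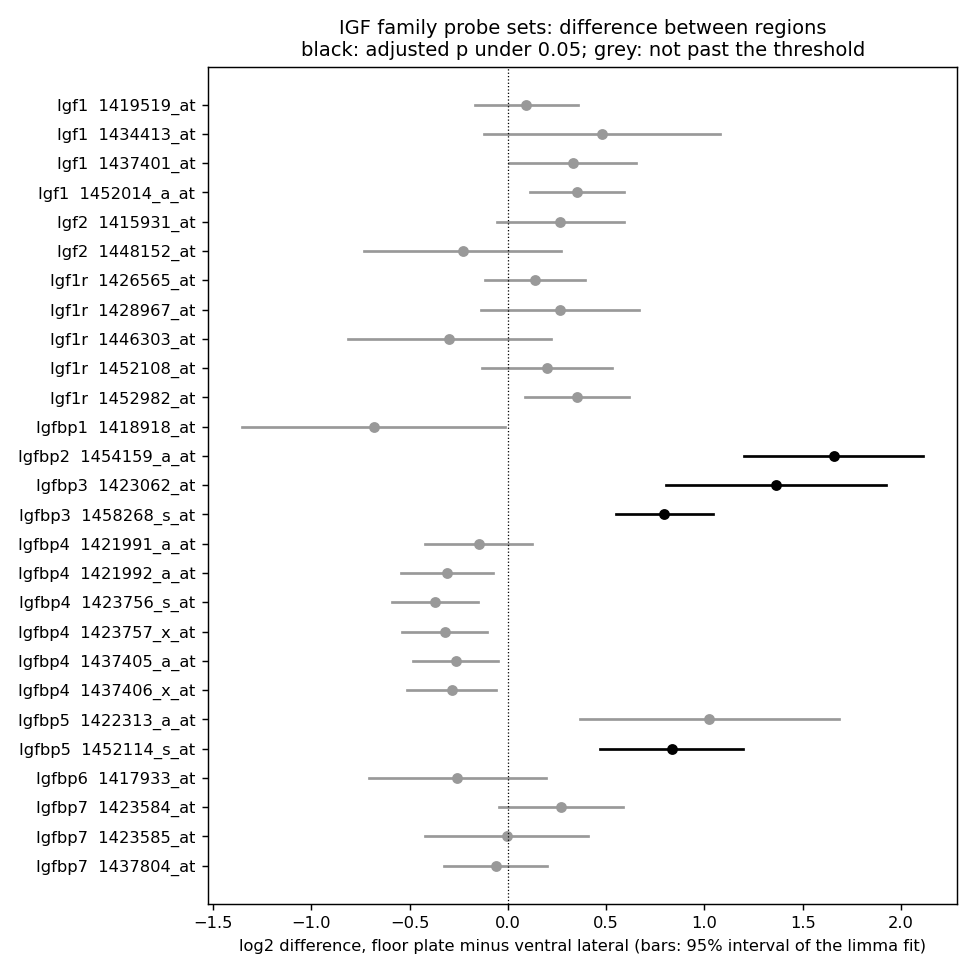
Log2 difference (floor plate minus ventral lateral, x axis) of each of the 27 probe sets, with the 95% interval of the limma fit as a bar, 3 samples per region. Black marks the 4 probe sets past the threshold, which lie between 0.80 and 1.66, and grey the others, including all 6 of Igfbp4 between -0.37 and -0.15.

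Igfbp2 encodes a binding protein that is made by neuroepithelium in the embryo and can also bind cells through an RGD motif. It had a single probe set, 1454159_a_at, whose log2 values were 0.60, 0.59 and 0.61 in floor plate samples 1, 2 and 3 and -1.18, -0.59 and -1.41 in ventral lateral samples 1, 2 and 3. The floor plate samples were nearly equal, and the spread lay in the ventral lateral samples, where sample 2 was the highest. The means were 0.60 ± 0.01 and -1.06 ± 0.42 (SD, n = 3 each), a log2 difference of 1.66 (SE 0.20, adjusted p = 0.00344 in limma). This was the lowest adjusted p of the family. The difference passed the threshold in all 15 alternatives, at 1.48 to 1.89, and in each fit without 1 sample. The ventral lateral samples stood in the same order for Igfbp2 as for the mean of the floor plate marker list, with sample 2 highest and sample 3 lowest, and the part of this list's variation in the Igfbp2 result was not tested.

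Igfbp5 encodes a binding protein that also attaches to extracellular matrix and is the next protein-coding gene to Igfbp2 on chromosome 1 in the RefSeq gene table. Probe set 1452114_s_at stood at 0.25, 0.60 and 0.40 in floor plate samples 1, 2 and 3 and at -0.25, -0.29 and -0.72 in ventral lateral samples. The groups did not overlap, and ventral lateral sample 3 was the lowest. It was 1.78-fold higher in floor plate (log2 difference 0.83, SE 0.16, adjusted p = 0.0256 in limma). The ending _s_at marks a probe set that can be shared by several transcripts or genes. The other probe set, 1422313_a_at, had values of 0.11, 0.68 and 0.56 against -0.11, -0.39 and -1.22. Its groups were apart too, with floor plate sample 1 and ventral lateral sample 1 close to each other and ventral lateral sample 3 far below. Its log2 difference was larger, at 1.02, but so was its SE of 0.28, and it did not pass (adjusted p = 0.104 in limma). The call on 1452114_s_at was lost without floor plate sample 1 (adjusted p = 0.0534), 2 (0.0762) or 3 (0.0775) and without ventral lateral sample 3 (0.0552), with log2 differences of 0.68 to 0.92. With the mean of the pair of probe sets as the value of the gene, Igfbp5 passed at a log2 difference of 0.93 (adjusted p = 0.0353 in limma over 18193 genes, 8.13% of them called). With the probe set of larger variance it did not (1.02, adjusted p = 0.0694, 7.80% called).

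Igfbp2 and Igfbp5 are neighbours that were both higher in floor plate, so the bases just before their annotated starts are shown. They are from RefSeq, build GRCm38.p6, 250 bases each, at chr1:72824230-72824479 on the plus strand for Igfbp2 and at chr1:72874866-72875115 on the minus strand for Igfbp5, each written on its own gene's strand. Igfbp2 has a second annotated start, not shown. Capitals mark the motifs searched on both strands, namely the GC box GGGCGG, the TATA box TATAAA, the Foxa core as TGTTTAC or TATTTAC, and the Gli site GACCACCCA.
Igfbp2: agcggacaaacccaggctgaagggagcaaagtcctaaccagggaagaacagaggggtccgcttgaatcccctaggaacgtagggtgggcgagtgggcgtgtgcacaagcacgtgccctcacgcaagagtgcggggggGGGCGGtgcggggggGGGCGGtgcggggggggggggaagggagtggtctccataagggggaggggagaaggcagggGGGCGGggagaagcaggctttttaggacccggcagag
Igfbp5: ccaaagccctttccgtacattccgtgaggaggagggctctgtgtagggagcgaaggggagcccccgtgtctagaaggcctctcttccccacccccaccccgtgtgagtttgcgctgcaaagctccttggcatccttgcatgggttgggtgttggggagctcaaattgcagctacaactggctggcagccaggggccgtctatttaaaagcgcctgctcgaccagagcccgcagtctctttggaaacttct
The Igfbp2 window held 3 GC boxes, starting 113, 98 and 37 bases before the start, and none of the other motifs. The Igfbp5 window held none of the 4 in these letters, and 58.8% of its bases were G or C against 67.2% for Igfbp2. Of 32851 RefSeq promoter windows of the same length, 32.7% held a GC box, 12.4% a TATA box, 5.76% a Foxa core and 0.225% a Gli site. All 10 genes had at least 1 window, 14 in all, and none of these held a Foxa core or a Gli site. The TATA box letters were found in the window of Igfbp4, on the gene's own strand 28 bases before the start. In the window of Igfbp6 they were found on the opposite strand only, 148 bases before the start. A match or its absence describes these letters and says nothing of whether a factor binds.

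Igfbp3 encodes the main carrier of IGFs in adult blood. Its values on probe set 1423062_at were 1.04, 0.32 and 1.27 in floor plate samples 1, 2 and 3 and -0.73, -0.40 and -0.32 in ventral lateral samples. All floor plate samples were above all ventral lateral ones, with floor plate sample 2 well below the other two. The log2 difference was 1.36 (SE 0.24, 2.57-fold, adjusted p = 0.0196 in limma). The second probe set, 1458268_s_at, had 0.52, 0.33 and 0.32 against -0.32, -0.52 and -0.40. Its samples lay closer together within each region, and its log2 difference was 0.80 (SE 0.11, 1.74-fold, adjusted p = 0.00575 in limma). The ending _s_at marks a probe set that can be shared by several transcripts or genes. The second probe set passed in all 14 alternatives that held it. The first missed the threshold without floor plate sample 1 (adjusted p = 0.0864) or 3 (0.0545) and without ventral lateral sample 1 (0.0814) or 3 (0.0515), at log2 differences of 1.17 to 1.44.

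Igfbp1 is the neighbour of Igfbp3 on chromosome 11 and encodes a binding protein that the adult liver makes under the control of insulin. Its probe set, 1418918_at, had log2 values of -0.26, 0.11 and -0.14 in floor plate and -0.11, 1.10 and 0.77 in ventral lateral samples. Ventral lateral samples 2 and 3 were high, and ventral lateral sample 1 lay within the floor plate range. The log2 difference of -0.68 (SE 0.29, 95% interval -1.35 to -0.01) did not pass (adjusted p = 0.291 in limma). Without ventral lateral sample 1 it was -1.03 and passed (adjusted p = 0.0264). The neighbours Igfbp1 and Igfbp3 thus had differences of opposite sign, while the neighbours Igfbp2 and Igfbp5 had the same sign. Whether the pairs differ in this was not tested.

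Igfbp4 encodes a binding protein that mostly restrains IGF action and is the classical substrate of the protease encoded by Pappa. It had 6 probe sets, more than any other gene of the family, and its log2 differences were -0.37 to -0.15. For 5 of the 6 the floor plate samples lay entirely below the ventral lateral samples, as they did for 11.0% of all probe sets. The clearest, 1423756_s_at, had values of -0.12, -0.22 and -0.29 in floor plate and 0.12, 0.17 and 0.20 in ventral lateral samples. Both regions were tight on it, and the gap between them was small. Its log2 difference of -0.37 (SE 0.09, 1.29-fold) had an adjusted p of 0.0768 in limma. The probe set 1421991_a_at, whose groups overlapped, had the smallest difference of the 6 (-0.15, SE 0.12, adjusted p = 0.618). The 6 probe sets measure 1 gene in the same samples and are not independent observations of it. As the mean of all 6, the gene had a log2 difference of -0.28 (adjusted p = 0.0911 in limma).

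**Figure D2:**
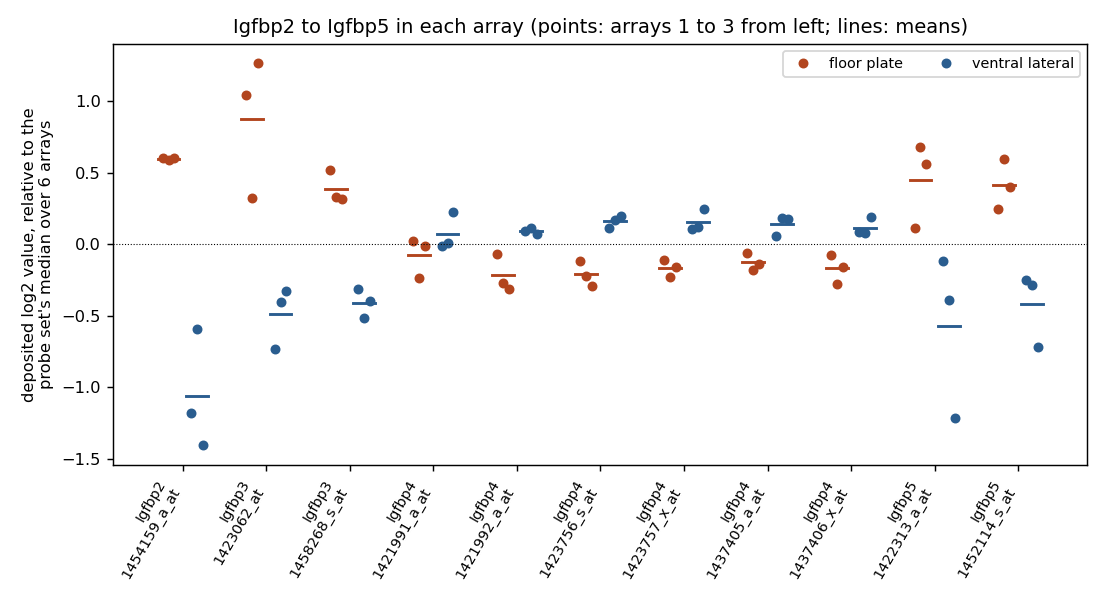
Deposited log2 values (y axis, relative to each probe set's median) of the probe sets of Igfbp2 to Igfbp5, 1 point per array and a line for the mean of 3. Igfbp2 is nearly constant in floor plate (0.59 to 0.61) and spread in ventral lateral samples (-1.41 to -0.59), and the Igfbp4 probe sets lie between -0.31 and 0.24.

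Igfbp6 and Igfbp7 showed no difference past the threshold. Igfbp6 encodes a binding protein that prefers IGF2. Its probe set 1417933_at had values of -0.31, -0.03 and 0.03 in floor plate and 0.55, -0.19 and 0.11 in ventral lateral samples. The regions overlapped, and ventral lateral sample 1 was the highest. The log2 difference was -0.26 (95% interval -0.71 to 0.19, adjusted p = 0.595 in limma). Igfbp7 encodes a protein that binds IGFs only weakly and is abundant in blood vessels. Its 3 probe sets had log2 differences of 0.27, -0.01 and -0.06, with overlapping regions on each (adjusted p of 0.39 to 0.993 in limma). The sign of the near-zero probe set, 1423585_at, turned after quantile normalization (0.01), with array weights (0.03), and without floor plate sample 2 (0.05) or ventral lateral sample 1 (0.20). That sample stood at 0.47 on it, against -0.15 and -0.13 in ventral lateral samples 2 and 3. Of 15 vascular endothelial probe sets 1, that of the tight junction gene Cldn5, was lower in floor plate and none higher. The mean of that list ranged from -0.16 to 0.09 over the floor plate samples and from -0.05 to 0.11 over the ventral lateral ones.

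Igf1 had 4 probe sets, all with a difference above 0 and none past the threshold. The most separated, 1452014_a_at, had values of 0.15, 0.33 and 0.09 in floor plate and -0.16, -0.09 and -0.22 in ventral lateral samples. The regions did not overlap, floor plate sample 2 was the highest, and the log2 difference was 0.35 (SE 0.10, adjusted p = 0.125 in limma). The widest difference, 0.48 on 1434413_at, came with the widest spread, from -0.23 to 0.53 over the floor plate samples and from -0.70 to 0.05 over the others (95% interval -0.12 to 1.08, adjusted p = 0.428). The other probe sets were at 0.33 and 0.09, with overlapping regions.

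Igf2 is an imprinted gene, expressed from the paternal allele in most embryonic tissues and strongly in mesoderm. Its probe sets went opposite ways. On 1415931_at the values were 0.0025, 0.50 and 0.14 in floor plate and -0.12, -0.03 and -0.0025 in ventral lateral samples. On this probe set the regions were just apart, and floor plate sample 2 made most of the log2 difference of 0.27 (SE 0.14, adjusted p = 0.409 in limma). On 1448152_at they were -0.64, 0.19 and -0.01 against -0.07, 0.29 and 0.01, a log2 difference of -0.23 (SE 0.22, adjusted p = 0.686). Floor plate sample 1 was far below the rest there, and without it the difference was 0.01. Floor plate sample 2 was the highest of the floor plate samples on both probe sets. The mean of 29 mesenchyme and meninges probe sets was lowest in sample 1 and highest in sample 2 of each region. It was -0.30, 0.30 and -0.02 in floor plate and -0.26, 0.18 and 0.03 in ventral lateral samples. Igf2 had this order in both regions on 1448152_at, while on 1415931_at ventral lateral sample 3 was the highest of its region. The part of mesenchyme in the Igf2 values was not tested. In that list 2 probe sets were higher in floor plate, those of the bHLH factor gene Twist1 and the matrix protein gene Postn, and none lower. The median log2 difference of the list was -0.08, and 9 of the 29 had a difference above 0.

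Igf1r, the receptor gene, had 5 probe sets, of which 4 had a difference above 0. The largest, on 1452982_at, was 0.35 (SE 0.11, adjusted p = 0.163 in limma), with values of 0.17, 0.36 and 0.07 in floor plate and -0.10, -0.27 and -0.07 in ventral lateral samples. It was the 1 probe set of the receptor whose regions did not overlap. The differences on the other 4 were 0.27, 0.20, 0.14 and -0.30. The lowest, on 1446303_at, had ventral lateral sample 1 at 0.66 and its other 2 samples at 0.00. The 95% intervals differed between the probe sets, from -0.81 to 0.22 on 1446303_at to 0.09 to 0.61 on 1452982_at.

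**Figure D3:**
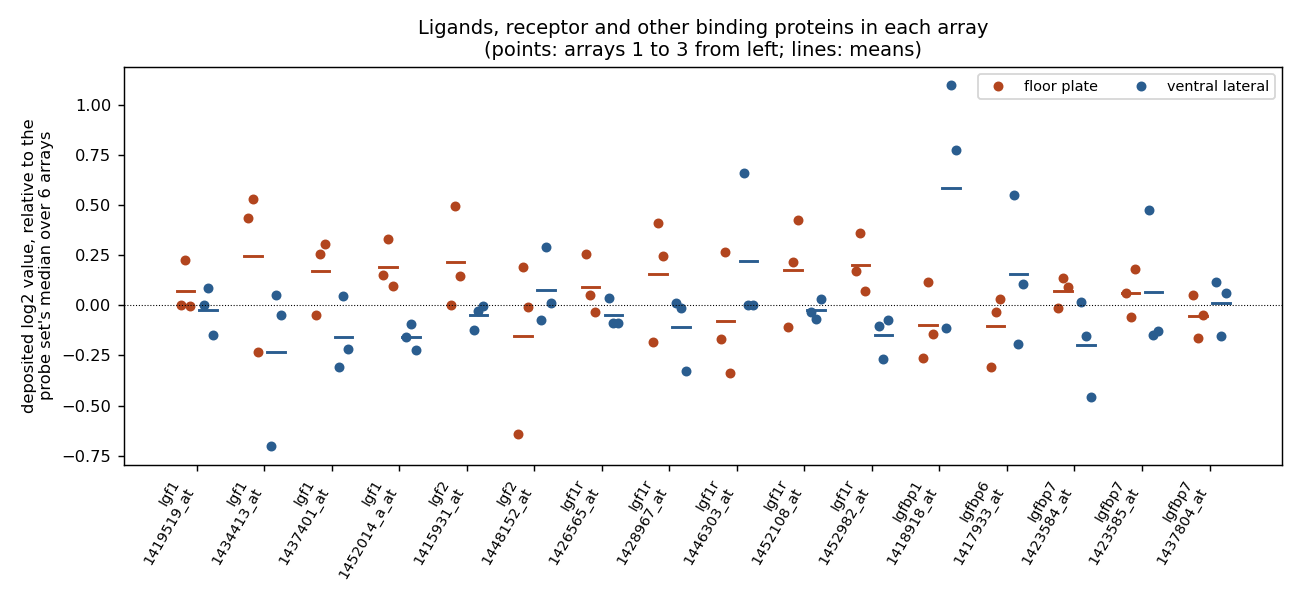
Deposited log2 values (y axis, relative to each probe set's median) of the 16 probe sets of Igf1, Igf2, Igf1r, Igfbp1, Igfbp6 and Igfbp7, 1 point per array and a line for the mean of 3. The regions overlap on most of them; ventral lateral samples 2 and 3 of Igfbp1 (1.10 and 0.77) and floor plate sample 1 of Igf2 on 1448152_at (-0.64) stand apart.

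The other genes of the pathway were taken from a list of 51, of which 44 had singly annotated probe sets, 111 in all. Of these 111 probe sets 4 were higher and 3 lower in floor plate, close to the 2.70% and 2.01% of all probe sets, and their median log2 difference was 0.01. Of the calls, 2 higher and 3 lower fell among the 15 probe sets of 8 genes that carry, resemble or regulate the binding proteins. The lower ones were the pappalysin genes. Pappa2, whose product cleaves the proteins of Igfbp3 and Igfbp5, had values of -1.69, -1.63 and -2.41 in floor plate and 1.99, 1.63 and 1.82 in ventral lateral samples on its 1 probe set. The regions were far apart, and floor plate sample 3 was the lowest. Pappa2 was 13.2-fold lower in floor plate (log2 difference -3.72, SE 0.21, adjusted p = 0.000236 in limma).

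Pappa was lower on 2 of its 3 probe sets. On 1427633_a_at it stood at -0.67, -0.98 and -1.33 in floor plate and 0.89, 0.67 and 0.72 in ventral lateral samples, again with no overlap. The log2 difference was -1.75 (SE 0.17, 3.37-fold, adjusted p = 0.00158 in limma), and on 1432591_at it was -1.07 (SE 0.12, adjusted p = 0.00248). The third probe set had a log2 difference of -0.56 (adjusted p = 0.092). The 3 called pappalysin probe sets passed in all 15 alternatives. Stc1 and Stc2 encode stanniocalcins, which inhibit the pappalysins. None of their 5 probe sets passed. The 3 of Stc2 had values in floor plate entirely above those in ventral lateral samples, as did 11.5% of all probe sets. Their log2 differences were 0.27, 0.68 and 0.29 (adjusted p of 0.0645 to 0.203 in limma), and they are repeated measures of 1 gene.

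Igfbpl1, a gene related to the binding proteins, was higher in floor plate on both probe sets. The values on 1450960_at were 0.27, 0.54 and 0.18 in floor plate and -0.33, -0.18 and -0.70 in ventral lateral samples. The regions did not overlap but came close, and the log2 difference was 0.73 (SE 0.16, adjusted p = 0.0479 in limma). On 1423377_at it was 0.61 (SE 0.12, adjusted p = 0.0304). The second call was lost in each fit without 1 sample (adjusted p of 0.053 to 0.101). The first was lost in each of these fits (0.0785 to 0.124) other than that without ventral lateral sample 2 (0.0473), and with all 6 samples under robust eBayes (0.0517) and array weights (0.0547).

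Of the receptor adaptors, Irs1, which encodes the main docking protein under the insulin and IGF receptors, was higher in floor plate. Its probe set 1423104_at had values of 0.53, 0.79 and 0.73 in floor plate and -1.05, -0.53 and -0.80 in ventral lateral samples. The regions were well apart, and Irs1 was 2.78-fold higher (log2 difference 1.47, SE 0.15, adjusted p = 0.00188 in limma), past the threshold in all 15 alternatives. It was the 1 call among 22 adaptor probe sets of 10 genes. Among 56 probe sets of the PI3 kinase, Akt, mTOR and Foxo list there was again 1 call, higher in floor plate. This was Pik3r1, the gene of the regulatory subunit of PI3 kinase, on 1425515_at (log2 difference 0.86, SE 0.19, adjusted p = 0.0496), which passed in none of the fits without 1 sample (0.0622 to 0.129). With all 6 samples it also missed after array centring (0.0511), with robust eBayes (0.0538) and with array weights (0.0523). Its other probe sets were at 0.58, 0.70 and 0.24 without passing. The receptor and insulin genes Igf2r, Insr, Insrr and Ins2 had 7 probe sets and no call in limma, with log2 differences of -0.29 to 0.53. The genes at the Igf2 locus and of Igf2 RNA-binding proteins had 11 probe sets and no call (-0.22 to 0.24). The count of 4 higher pathway probe sets was 2 without floor plate sample 1 or ventral lateral sample 2 or 3, and 1 without floor plate sample 2 or 3 or ventral lateral sample 1.

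**Figure D4:**
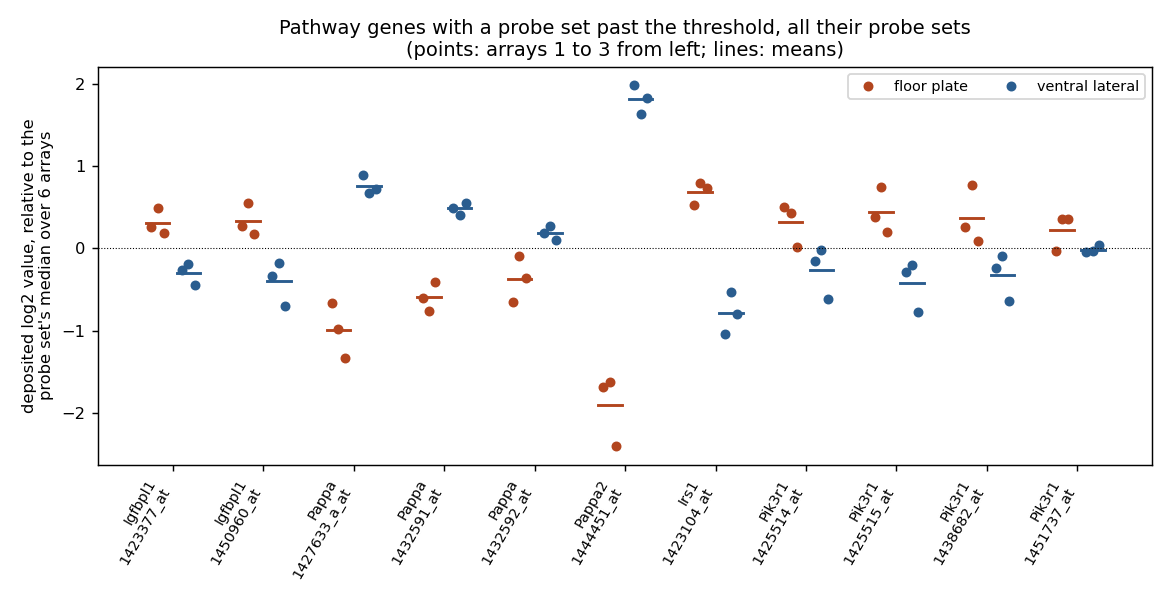
Deposited log2 values (y axis, relative to each probe set's median) of all probe sets of the 5 pathway genes with a call, 1 point per array and a line for the mean of 3. Pappa2 spans from -2.41 in floor plate to 1.99 in ventral lateral samples, while Irs1 and Igfbpl1 lie higher in floor plate.

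The probe sets of other genes with values most like those of the family were found by Euclidean distance over the 6 arrays among 34918 probe sets. This distance compares both the pattern and the size of the values. Those nearest to Igfbp2 were of Kcnab1, a potassium channel subunit gene (distance 0.244), the forkhead factor gene Foxp2 (0.247) and the integrin gene Itgb5 (0.32). Nearest to Igfbp3 on 1458268_s_at were Plekha7 (0.149), E130308A19Rik (0.15) and Fam167a (0.15). Nearest to Igfbp5 on 1452114_s_at were the ephrin receptor gene Epha7 (0.128), Prkar2a, a regulatory subunit gene of protein kinase A (0.153), and Zbtb42 (0.179). With 6 arrays and so many probe sets, small distances arise for many genes, and the likeness is a description of these samples.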

How the data were processed

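RNA of 6 samples, 3 per region, was measured on Affymetrix mouse arrays. The deposited values are on a log2 scale by assumption: per the submitters' processing notes the authors used RMA, and the log base, the direction and the centring step are not given in the sources used here. Centring is seen in the values, since 100% of the 45101 probe sets had a median within 1e-05 of 0 across the arrays. No filter on signal could therefore be applied here, and no background correction was added to the authors' processing. Array medians ranged from -0.0031 to 0.0045, and precision is limited by having 6 arrays.

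The 64 control probe sets were left out. Names came from GEO's platform annotation, with 34945 probe sets of 1 symbol, 932 of several and 9160 of none. Genes, gene lists and the naming rule were chosen with earlier results of these data known. The rule named all 10 family genes, up to 3 called probe sets per pathway list and direction, and the 3 nearest probe sets of the 3 family genes with the lowest adjusted p. Differences (floor plate minus ventral lateral) of all 45037 probe sets were tested in limma 3.58.1 (lmFit, eBayes, R 4.3.3), two-sided, with a Benjamini-Hochberg threshold of 0.05. The fit was also run on simulated data with 50 changed probe sets per size of change. It called 10% of those with a log2 change of 0.5, 60% at 1 and 94% at 2. The simulation changed far fewer probe sets than the 2121 called in the data, so its adjusted threshold was stricter. These rates therefore do not carry over to the data. Small differences may be missed there too, at a rate that was not tested. An exact permutation test of 3 against 3 samples cannot go below p = 0.1 and was not used for calls. Motifs and plots used Python 3.11.15 and matplotlib 3.10.9. Alternatives were quantile normalization, array centring, 2 probe set filters, robust eBayes, weights per array, a block for the replicate number, 2 thresholds and leaving out each sample.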

Additional observations from a re-analysis of the deposited data

How the results depend on the processing

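Over the alternatives, the 4 higher probe sets of the family became 2 without probe sets ending in _x_at or _s_at, which removes 2 of the 4, and 2 at a threshold of 0.01, and ranged from 2 to 4 without 1 sample. The count of lower ones was 1 at a threshold of 0.1, namely Igfbp4 on 1423756_s_at, and 0 to 1 without 1 sample, the 1 being Igfbp1 without ventral lateral sample 1. Over all probe sets, 584 were higher and 373 lower at 0.01 and 1419 lower at 0.1. Without 1 sample, 753 to 991 were higher and 510 to 743 lower, against 1218 and 903 with all 6. Of the pathway lists, 2 probe sets were higher with robust eBayes, 1 at 0.01, 7 at 0.1 and 1 to 2 without 1 sample. Signs turned for some differences that had not passed. Igf2 on 1448152_at, at -0.23 with all samples, ranged from -0.4021 to 0.0143 when 1 sample was left out, the latter without floor plate sample 1. Igfbp7 on 1423585_at, at -0.01, was at 0.0101 after quantile normalization, 0.0328 with array weights, and -0.1128 to 0.1992 when 1 sample was left out, with a turned sign without floor plate sample 2 or ventral lateral sample 1. With 1 value per gene, that of the probe set of largest variance, these same probe sets stand for Igf2 and Igfbp7. Their ranges without 1 sample are then the same by construction. There, the mean of all probe sets in place of that of largest variance gave 0.0180 in place of -0.23 for Igf2, 0.1315 in place of -0.30 for Igf1r and 0.0670 in place of -0.01 for Igfbp7. For each of these genes the mean takes in a probe set with a difference above 0, while the probe set of largest variance was below 0. Why probe sets of 1 gene differed in sign, and why signs turned between fits, was not tested. With the replicate number as a block, the counts were 4 higher and 0 lower in the family and 1062 and 842 over all probe sets. Deviations of samples with the same number correlated at 0.0096, 0.1248 and 0.1135. The numbers were not taken as pairs because the first pair stayed under 0.1 and no label ties them together. As a hint to the contrary from the data, 4 of 6 samples correlated best with their own number, and the mean of the blood list was lowest in sample 1 and highest in sample 2 of each region, as was that of the mesenchyme list. Values without an absolute level leave signal over background unknown, and the _s_at and _x_at probe sets may take up signal of related transcripts.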
